A study of Mus musculus with 6 samples.

Results

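The genes described here mark T cells and cytotoxic lymphocytes. They are Cd3d, Cd3e, Cd3g, Cd4, Cd8a, Cd8b1, Gzma, Gzmb, Prf1 and Nkg7, and they were taken by symbol from a count table of 52459 genes. All 10 were found, and all 10 were among the 17032 genes that had enough reads to be tested. They were measured by RNA-Seq in whole livers of 6 mice, 3 labelled sgCtrl (mice 5.1, 7.1 and 7.2) and 3 labelled sgPrdx2 (mice 1.1, 1.3 and 3.2). Every mouse was a C57BL6J Alb-Cre/Cas9 F1 animal, male per the study's methods, and 8 months old. The vector, AAV8-U6-sgCtrl or AAV8-U6-sgPrdx2, was given intravenously at an age of 4 to 5 weeks, and 3 weeks later DEN (diethylnitrosamine, a liver carcinogen) was injected intraperitoneally at 100 mg/kg. A choline-deficient, amino-acid-defined high-fat diet (CDAHFD) was started 1 week after DEN and lasted 6 months. Cas9, DEN and the diet were thus common to both groups, and a group on chow or without DEN was not analysed here. The Alb promoter that drives Cre is active in hepatocytes, so that the lymphocytes whose RNA is described were not the cells meant to be edited.

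T cells recognise antigen through a receptor whose signal is passed into the cell by the CD3 chains. CD4 marks helper and regulatory T cells, and the CD8 chains mark the T cells that kill infected or transformed cells. Killing uses granules that hold the pore-forming protein perforin and the granzymes, proteases that enter the target cell. In liver, CD8 T cells, natural killer (NK) cells and innate-like T cells are part of the resident immune compartment, and they have been studied in steatohepatitis and in tumour surveillance.

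The promoters of 4 of these genes are shown first, because they belong to the genes on which the results turn: Cd8a and Prf1, which had the most negative differences between groups, and Gzma and Cd3e, a granzyme and the CD3 chain used as the T cell reference. RefSeq promoter windows (GRCm38.p6) were found for 8 of the 10 genes, and Cd4 and Cd8b1 had no entry. Each line holds the 250 bases before the RefSeq start, written 5′ to 3′ on the strand of the gene. Capitals mark 3 motifs on either strand: TGTGGT or its reverse complement ACCACA for RUNX factors, AGGAAG or CTTCCT for ETS factors, and AGGTGT or ACACCT for T-box factors. These factor families direct T and NK cell genes, and the motifs were chosen with the values known.
Cd8a, chr6:71373177-71373426, plus strand: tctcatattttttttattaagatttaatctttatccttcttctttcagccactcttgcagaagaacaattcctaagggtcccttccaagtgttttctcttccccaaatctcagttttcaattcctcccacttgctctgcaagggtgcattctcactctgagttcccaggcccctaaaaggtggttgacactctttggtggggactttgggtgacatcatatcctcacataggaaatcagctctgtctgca
Prf1, chr10:61297586-61297835, plus strand: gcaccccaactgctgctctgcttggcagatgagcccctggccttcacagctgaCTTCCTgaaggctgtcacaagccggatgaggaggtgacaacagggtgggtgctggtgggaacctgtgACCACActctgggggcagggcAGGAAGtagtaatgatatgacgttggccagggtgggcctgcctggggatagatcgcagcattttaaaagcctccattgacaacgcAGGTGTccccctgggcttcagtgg
Gzma, chr13:113100982-113101231, minus strand: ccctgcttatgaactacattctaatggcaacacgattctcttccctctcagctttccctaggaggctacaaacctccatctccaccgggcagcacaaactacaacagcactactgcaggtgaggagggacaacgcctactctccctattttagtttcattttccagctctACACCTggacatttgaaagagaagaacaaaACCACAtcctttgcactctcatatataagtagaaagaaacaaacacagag
Cd3e, chr9:45009612-45009861, minus strand: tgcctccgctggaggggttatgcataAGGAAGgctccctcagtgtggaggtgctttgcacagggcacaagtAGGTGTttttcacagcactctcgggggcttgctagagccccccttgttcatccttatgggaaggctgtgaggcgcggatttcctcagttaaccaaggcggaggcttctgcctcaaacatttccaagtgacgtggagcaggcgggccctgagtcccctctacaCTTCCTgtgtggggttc
The Cd8a window held none of the 3 motifs. The Prf1 window held a RUNX match 130 bases before the start, ETS matches 109 and 197 bases before it and a T-box match 24 bases before it. The Gzma window held a RUNX match at 50 bases and a T-box match at 80 bases, and the Cd3e window a T-box match at 179 bases and ETS matches at 17 and 224 bases. Over the 8 windows, the RUNX motif was in 4, the ETS motif in 4 and the T-box motif in 6. Among 32851 promoter windows of this length, they were in 14.05%, 29.48% and 11.83%. The TATA motif TATAAA was in none of the 8 and in 12.37% of all windows. These matches are descriptions of letters, not binding sites.

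Levels are given as CPM, the counts of a gene scaled to a fixed library size, after normalization over all genes by TMM (a scaling factor per library that assumes most genes do not differ). Totals ranged from 37462102 to 56865293 counts per liver, so that 3 counts corresponded to 0.0555 to 0.0921 CPM. Prdx2, the targeted gene, had 109.3, 116.7 and 132.0 CPM in the sgCtrl livers and 99.0, 111.9 and 149.2 CPM in the sgPrdx2 livers (log2 fold change 0.01, SE 0.18, edgeR adjusted p = 0.983). The groups overlapped, so that the level of Prdx2 RNA did not tell them apart, and the group names below are those of the labels. The counts do not show whether an edited transcript codes for protein. In whole liver, fewer T cells and less RNA per T cell cannot be told apart. On the first principal component of all genes, sgPrdx2 liver 3.2 lay farthest from the others.

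All 10 genes were low in these livers. Per kilobase of annotated exons (RPKM), Nkg7, a membrane protein of cytotoxic granules, had the highest level, with 6.69 ± 1.96 RPKM in sgCtrl and 5.72 ± 0.874 RPKM in sgPrdx2 livers (SD, n = 3). Cd8b1 came next with 2.70 ± 0.664 RPKM in sgCtrl livers, and its range did not reach that of Nkg7. The order then ran through Cd3g (1.85 ± 0.360), Cd8a (1.67 ± 0.165), Cd3d (1.58 ± 0.304), Gzmb (1.09 ± 0.445), Cd4 (1.02 ± 0.457), Gzma (0.997 ± 0.157), Prf1 (0.743 ± 0.273) and Cd3e (0.716 ± 0.0903 RPKM). From Cd8b1 on, every gene overlapped its neighbour in this order, so that these ranges alone do not rank neighbours. Genes farther apart, such as Cd8b1 and Cd8a or Cd8a and Cd3e, did not overlap. Within single sgCtrl livers, some neighbours kept their order. Cd8b1 had 3.404, 2.085 and 2.617 RPKM in livers 5.1, 7.1 and 7.2, and Cd3g had 2.222, 1.504 and 1.816 RPKM. Others did not, such as Cd8a and Cd3d, with 1.734 and 1.825 RPKM in liver 5.1 but 1.48 and 1.238 RPKM in liver 7.1. In sgPrdx2 livers, Prf1 had the lowest level (0.353 ± 0.113 RPKM). Exons of all annotated transcripts were joined for these lengths, which lowers the RPKM of a gene with a long rare transcript.

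In the comparison of sgPrdx2 with sgCtrl livers, 1 of the 10 genes was called, and it was Cd8a, lower in sgPrdx2 (none was called when any of the 6 livers was left out). A gene was called when its adjusted p (edgeR quasi-likelihood test, Benjamini-Hochberg over all genes tested) was under 0.05. Of all genes tested, 3.33% were called in either direction and 1.54% were called lower. Over all genes, 0 were called without sgCtrl liver 5.1 or 7.2 or sgPrdx2 liver 1.1 or 1.3. There were 394 called without sgCtrl liver 7.1 and 619 without sgPrdx2 liver 3.2. The log2 fold change was below 0 for 9 of the 10 genes, with a median of -0.28, while the median over all genes tested was -0.02 and 51.7% of them were below 0. The summed level of the 10 genes was 29.1 to 44.0 CPM in sgCtrl and 26.4 to 30.6 CPM in sgPrdx2 livers, and these ranges overlapped. The groups did not overlap for 1 of the 10 genes, while 17.5% of all genes tested did not overlap and were lower in sgPrdx2. A single gene of 10 cannot be set apart from these shares, and the description below is of single genes.

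**Figure D1:**
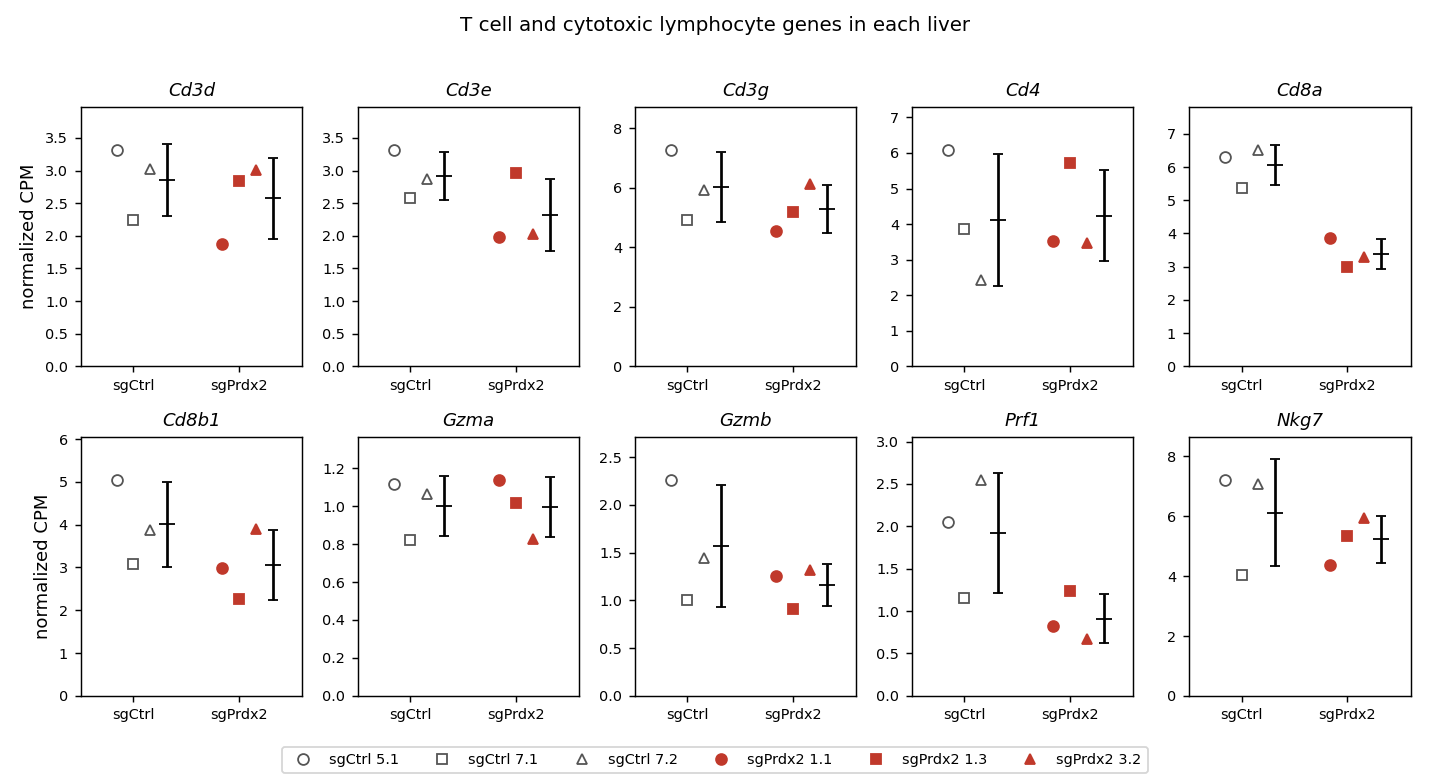
Normalized CPM (counts scaled to a fixed library size) of each of the 10 genes in each liver, with sgCtrl livers as open grey symbols and sgPrdx2 livers as filled red symbols; the black marks give the mean and SD of each group (n = 3), and each vertical axis starts at 0. The sgPrdx2 livers lie below all sgCtrl livers for Cd8a only; for Prf1 the groups overlap through sgCtrl liver 7.1 and sgPrdx2 liver 1.3.

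Cd8a encodes the alpha chain of the CD8 coreceptor, which binds class I MHC molecules. It lies at chr6:71373427-71379173 on the plus strand (GRCm38). Cd8a had 6.31, 5.38 and 6.51 CPM in sgCtrl livers 5.1, 7.1 and 7.2, and 3.87, 2.996 and 3.29 CPM in sgPrdx2 livers 1.1, 1.3 and 3.2. The highest sgPrdx2 liver was below the lowest sgCtrl liver. These levels rest on 276, 242 and 342 counts in sgCtrl and on 170, 162 and 107 counts in sgPrdx2 livers. The fall left 0.558 of the sgCtrl level, with a 95% interval of the log2 fold change from -1.25 to -0.43. By DESeq2, which called 13.8% of all genes, Cd8a had an adjusted p of 0.00163. The edgeR call was close to its threshold (adjusted p = 0.0486, edgeR). It was lost when any of the 6 livers was left out, with log2 fold changes of -0.95 to -0.74 and edgeR adjusted p values from 0.0620 without sgPrdx2 liver 3.2 to 0.173 without sgCtrl liver 7.2. The adjusted p was 0.0666 without sgCtrl liver 7.1, 0.114 without sgPrdx2 liver 1.3, 0.132 without sgCtrl liver 5.1 and 0.147 without sgPrdx2 liver 1.1. In the fits without sgCtrl liver 5.1 or 7.2 or sgPrdx2 liver 1.1 or 1.3, no gene at all was called.

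Cd8b1 encodes the CD8 beta chain, which pairs with the alpha chain on conventional cytotoxic T cells, whereas CD8 alpha homodimers also occur on other lymphocytes and on a class of dendritic cells. It lies near Cd8a, at chr6:71322788-71337494. Cd8b1 had 5.05, 3.09 and 3.88 CPM in sgCtrl and 2.99, 2.27 and 3.90 CPM in sgPrdx2 livers. The sgPrdx2 liver 3.2 was above 2 of the sgCtrl livers, and the groups overlapped (log2 fold change -0.40, SE 0.27, edgeR adjusted p = 0.384). Some 6.00% of the 50-base stretches of its transcripts occur in transcripts of other genes, so that part of its reads could have been assigned elsewhere. The log2 ratio of Cd8b1 to Cd8a within a liver was -0.62 ± 0.26 in sgCtrl and -0.17 ± 0.36 in sgPrdx2 livers (SD, n = 3), a difference of 0.44 (exact permutation p = 0.3, two-sided).

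The 3 CD3 genes lie next to one another on chromosome 9 and encode the delta, epsilon and gamma chains of the signalling complex. Cd3e had 3.31, 2.58 and 2.87 CPM in sgCtrl and 1.98, 2.96 and 2.03 CPM in sgPrdx2 livers. One sgPrdx2 liver, 1.3, was within the sgCtrl range and the others were below it (log2 fold change -0.32, SE 0.23, edgeR adjusted p = 0.411). Cd3d had 3.31, 2.25 and 3.03 CPM in sgCtrl and 1.87, 2.85 and 3.01 CPM in sgPrdx2 livers (log2 fold change -0.15, SE 0.25, edgeR adjusted p = 0.732). Cd3g had 7.27, 4.92 and 5.94 CPM in sgCtrl and 4.53, 5.20 and 6.14 CPM in sgPrdx2 livers (log2 fold change -0.19, SE 0.20, edgeR adjusted p = 0.580). For all 3 genes the groups overlapped, and the sgPrdx2 liver 1.1 was the lowest of the 6. The 95% interval of the log2 fold change ran from -0.86 to 0.21 for Cd3e. It ran from -0.74 to 0.43 for Cd3d and from -0.66 to 0.27 for Cd3g. Differences within these intervals, falls as well as rises, were not excluded. Cd3e overlaps the antisense transcript Gm48719 in exons, and the strand setting of the counting is not given in the sources used here.

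Cd4 encodes the coreceptor of helper T cells and is also found on some macrophages and dendritic cells. It had 6.08, 3.85 and 2.42 CPM in sgCtrl and 3.53, 5.71 and 3.47 CPM in sgPrdx2 livers. The highest and the lowest of the 6 livers were both sgCtrl. Its log2 fold change was 0.05 (SE 0.35, edgeR adjusted p = 0.939) and -0.31 when libraries were scaled to total counts alone, so that its direction was not set. Its 95% interval, from -0.76 to 0.87, was among the widest of the 10.

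Prf1 encodes perforin. It had 2.06, 1.16 and 2.55 CPM in sgCtrl and 0.820, 1.24 and 0.676 CPM in sgPrdx2 livers. Only sgPrdx2 liver 1.3 and sgCtrl liver 7.1 crossed, by 1.24 against 1.16 CPM. Prf1 had the most negative log2 fold change of the 10 genes, -1.06, with a 95% interval from -1.89 to -0.22, and it did not pass the test after adjustment (unadjusted p = 0.0192, adjusted p = 0.130, edgeR). It rested on 90, 52 and 134 counts in sgCtrl and on 36, 67 and 22 counts in sgPrdx2 livers. With scaling to total counts alone it was called (edgeR adjusted p = 0.0428). Leaving out a liver moved its log2 fold change from -1.34 without sgPrdx2 liver 1.3 to -0.80 without sgCtrl liver 7.2.

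Gzma and Gzmb encode granzymes A and B. Gzma had 1.12, 0.823 and 1.07 CPM in sgCtrl and 1.14, 1.02 and 0.829 CPM in sgPrdx2 livers. The groups covered almost the same range (log2 fold change -0.01, and 0.01 with RLE normalization or DESeq2, SE 0.26, edgeR adjusted p = 0.992), and the 95% interval ran from -0.60 to 0.58. Gzmb had 2.26, 1.001 and 1.45 CPM in sgCtrl and 1.25, 0.906 and 1.32 CPM in sgPrdx2 livers. All sgPrdx2 values of Gzmb were below the 2 higher sgCtrl values, and the groups overlapped through sgCtrl liver 7.1 (log2 fold change -0.44, SE 0.34, edgeR adjusted p = 0.445). Nkg7 had 7.22, 4.05 and 7.08 CPM in sgCtrl and 4.38, 5.34 and 5.96 CPM in sgPrdx2 livers. The sgCtrl liver 7.1 was the lowest of the 6 for Nkg7 (log2 fold change -0.23, SE 0.25, edgeR adjusted p = 0.598).

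**Figure D2:**
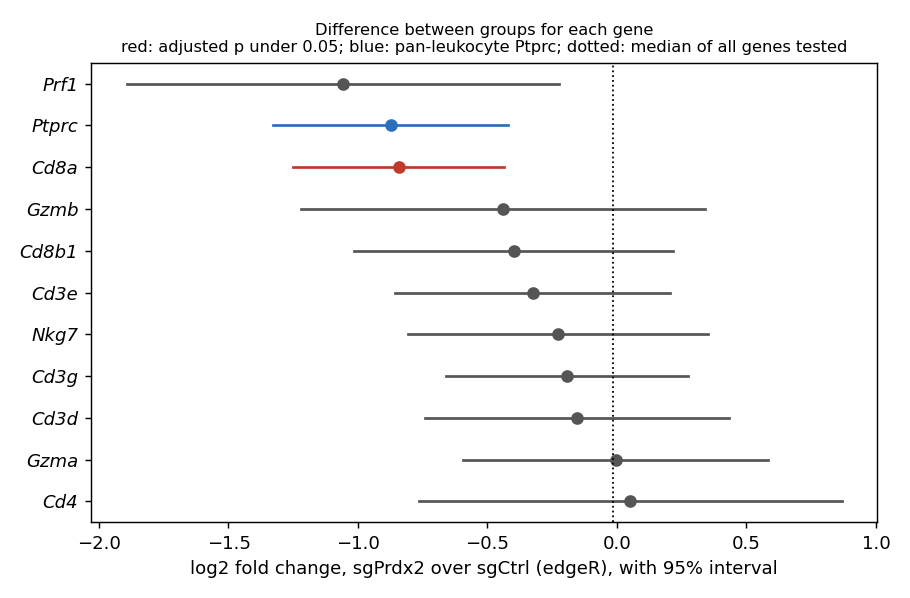
Log2 fold change of sgPrdx2 over sgCtrl livers for the 10 genes and for the pan-leukocyte gene Ptprc (blue), with 95% intervals from edgeR; the dotted line is the median of all genes tested. Cd8a (red) is the one gene of the 10 with an adjusted p under 0.05, at -0.84; the interval of Prf1 also lies below 0 (-1.89 to -0.22), and those of the other 8 genes include it.

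To set these genes against the leukocytes as a whole, the level of Ptprc was used, which encodes CD45, a phosphatase on the surface of nearly all leukocytes. Ptprc had 71.1, 70.1 and 58.6 CPM in sgCtrl and 37.9, 44.4 and 26.7 CPM in sgPrdx2 livers. The groups did not overlap, and Ptprc was not called (log2 fold change -0.87, SE 0.20, edgeR adjusted p = 0.0555). It was called by DESeq2 (adjusted p = 0.00187), without the filter on low counts (0.0208), with scaling to total counts (0.0206) and without sgPrdx2 liver 3.2 (0.0467, all 3 by edgeR), so that its call depends on these choices. Within each liver, the log2 ratio of Cd8a to Ptprc was -3.45 ± 0.27 in sgCtrl and -3.38 ± 0.44 in sgPrdx2 livers (SD, n = 3), and the difference was 0.06 (exact permutation p = 0.9, adjusted p = 0.9). The log2 fold changes of the 2 genes across livers were -0.84 and -0.87. The ratio of Cd3e to Ptprc was higher in each sgPrdx2 liver (-4.23, -3.89 and -3.69) than in any sgCtrl liver (-4.41, -4.74 and -4.33), by 0.56 on the log2 scale or 1.47-fold. The ratio of Cd4 to Ptprc was higher in each sgPrdx2 liver (-3.41, -2.95 and -2.93) than in any sgCtrl liver (-3.54, -4.17 and -4.57), by 1.001 on the log2 scale or 2.00-fold. For both, the two-sided exact permutation p was 0.1, the smallest that 3 livers against 3 can give, and 0.4 after adjustment over the 12 ratios computed. The 3 ratios to Ptprc rest on this 1 reference gene. The 12 pan-leukocyte genes listed, Ptprc among them, had log2 fold changes from -1.06 to -0.27, with a median of -0.61. Ratios to the others were not computed, and their size would depend on the gene chosen.

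Among the T cell genes, the log2 ratio of Cd8a to Cd3e in whole-liver RNA was 1.05 ± 0.12 in sgCtrl and 0.55 ± 0.48 in sgPrdx2 livers (difference -0.49, exact permutation p = 0.2). That of Cd8a to Cd4 was 0.65 ± 0.70 in sgCtrl and -0.29 ± 0.56 in sgPrdx2 livers (difference -0.94, exact permutation p = 0.2). Sample sgPrdx2 1.1 was within the sgCtrl range for both ratios. The ratio of Cd4 to Cd3e was 0.40 ± 0.58 in sgCtrl and 0.84 ± 0.09 in sgPrdx2 livers (difference 0.44, exact permutation p = 0.3).

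For the granule genes, the log2 ratio of Prf1 to Cd3e was -0.68, -1.13 and -0.17 in sgCtrl and -1.23, -1.23 and -1.53 in sgPrdx2 livers. It was lower in every sgPrdx2 liver, by -0.67 on average, or 0.629 of the sgCtrl ratio (exact permutation p = 0.1, adjusted p = 0.4). The gap between the groups was narrow, at -1.13 in sgCtrl liver 7.1 against -1.23. The other granule ratios overlapped between groups. The differences were -0.02 for Gzmb to Cd3e (exact permutation p = 0.9), 0.33 for Gzma to Cd3e (p = 0.2), 0.15 for Nkg7 to Cd3e (p = 0.6) and -0.35 for Gzmb to Gzma (p = 0.4). Across the 12 ratios, the groups did not overlap for 3, and none passed after adjustment, which the size of the design did not allow.

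**Figure D3:**
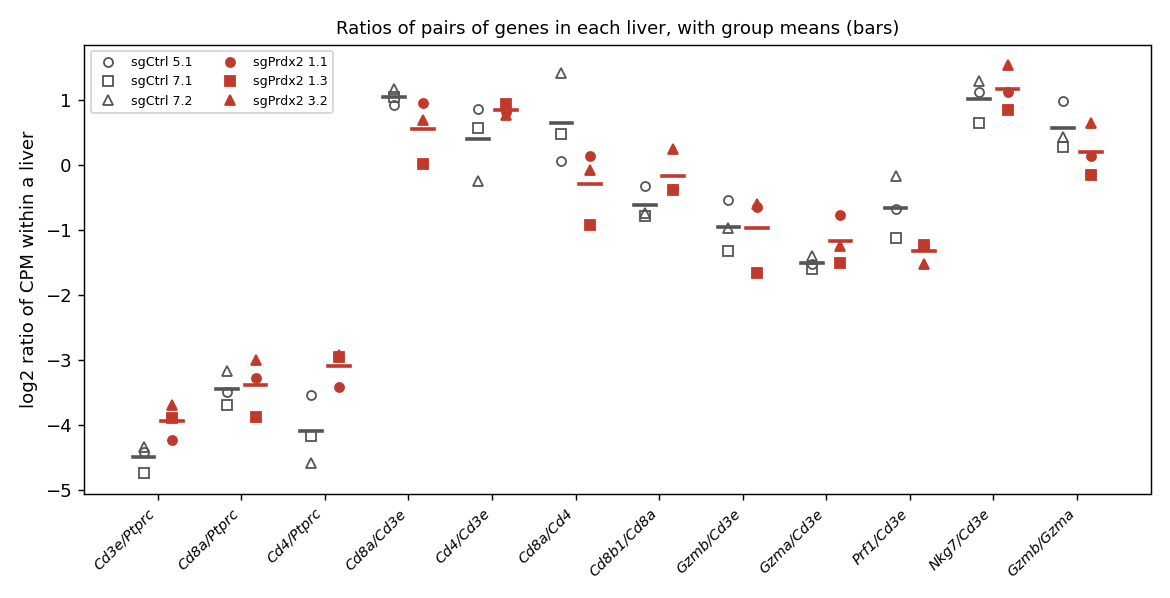
Log2 ratio of the CPM of 2 genes within a liver for the 12 pairs, with sgCtrl livers as open grey symbols, sgPrdx2 livers as filled red symbols and bars for the group means (n = 3). The groups do not overlap for Cd3e and Cd4 over Ptprc, which are higher in sgPrdx2 livers, and for Prf1 over Cd3e, which is lower; Cd8a over Ptprc has almost equal means, -3.45 and -3.38.

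The other genes of T and NK cells were taken from 6 lists with 95 genes in all, of which 88 were tested. In sgPrdx2 livers 3 of them were called lower, Lcp2 and Il7r among them. Without sgCtrl liver 7.1 the count was 2, without sgPrdx2 liver 3.2 it was 4, and without any of the other 4 livers it was 0. Over all genes tested, these fits called 394, 619 and 0. DESeq2 gave an adjusted p for 77 of the genes and called 9 lower and 1 higher, while it called 13.8% of all genes. The log2 fold change was below 0 for 71 of the 88, with a median of -0.33, and the groups did not overlap for 22 genes that were lower and for 1 that was higher. The share of all genes tested that was called lower (1.54%) and the share that did not overlap and was lower (17.5%) are the background for these counts. A share of genes higher without overlap was not computed.

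In the list of the T cell receptor and its signalling (22 genes tested, median log2 fold change -0.19), Lcp2 fell. It encodes SLP-76, an adaptor below the T cell receptor that is also used by macrophages, mast cells and platelets. Lcp2 had 24.6, 25.3 and 32.6 CPM in sgCtrl and 16.6, 17.1 and 12.2 CPM in sgPrdx2 livers (log2 fold change -0.85, SE 0.18, edgeR adjusted p = 0.0486). The groups did not overlap, and the edgeR call was lost when any liver was left out (adjusted p from 0.0537 without sgPrdx2 liver 3.2 to 0.168 without sgCtrl liver 7.2, edgeR). The fits without sgCtrl liver 5.1 or 7.2 or sgPrdx2 liver 1.1 or 1.3 called no gene at all. By DESeq2 Lcp2 had an adjusted p of 0.00139. Its exons overlap those of 4930469K13Rik on the other strand.

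Zap70, the kinase that binds the phosphorylated CD3 chains, stood on the other side. It had 4.14, 6.54 and 6.75 CPM in sgCtrl and 8.80, 11.9 and 14.7 CPM in sgPrdx2 livers. Every sgPrdx2 liver was above every sgCtrl liver, and the difference did not pass the test (log2 fold change 1.02, SE 0.25, edgeR adjusted p = 0.0671). It passed by DESeq2 (adjusted p = 0.00332) and by edgeR without the filter on low counts (adjusted p = 0.0263). No other gene of the 88 was higher without overlap. The constant segment of the T cell receptor alpha chain, Trac, had 7.22, 5.09 and 5.61 CPM in sgCtrl and 4.08, 5.07 and 4.58 CPM in sgPrdx2 livers. The groups were separate by a small gap, 5.09 against 5.07 CPM (log2 fold change -0.38, SE 0.19, edgeR adjusted p = 0.252). The beta chain segments Trbc1 and Trbc2 had log2 fold changes of 0.28 and 0.25 (edgeR adjusted p = 0.598 and 0.490), but they share 40.5% and 44.0% of their 50-base stretches, so that their separate counts are uncertain.

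Among the receptors for homing, survival and exit (14 tested, median -0.33), Il7r fell. Il7r, the receptor for the T cell survival factor IL-7, had 22.1, 13.8 and 15.6 CPM in sgCtrl and 6.81, 7.62 and 9.03 CPM in sgPrdx2 livers (log2 fold change -1.14, SE 0.21, edgeR adjusted p = 0.0409). The groups did not overlap. Il7r kept its call without sgCtrl liver 7.1 (edgeR adjusted p = 0.0403) or sgPrdx2 liver 3.2 (edgeR adjusted p = 0.0431). It lost the call without any of the other 4 livers, with an edgeR adjusted p of 0.119 and 0.143 without sgCtrl livers 5.1 and 7.2 and of 0.147 and 0.0898 without sgPrdx2 livers 1.1 and 1.3. Those fits called no gene at all. By DESeq2 with all livers, Il7r had an adjusted p of 0.000111. In whole liver, the cells that this Il7r RNA came from were not determined.

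In the other 4 lists edgeR called no gene, while at an unadjusted p under 0.05 there were 1 of 8 genes for gamma-delta and innate-like T cells, 2 of 13 for transcription factors, 3 of 17 for granule machinery and effectors and 3 of 14 for NK cell receptors. Of all genes tested, 24.9% had an unadjusted p under 0.05. DESeq2 called 1 gene in each of these lists (of 7, 11, 15 and 9 with an adjusted p), beside 13.8% of all genes. Their median log2 fold changes were -0.35, -0.39, -0.31 and -0.36. Zbtb16, which encodes the PLZF factor of innate-like T cells, had 3.62 ± 0.897 CPM in sgCtrl and 1.70 ± 0.502 CPM in sgPrdx2 livers (n = 3, log2 fold change -1.08, edgeR adjusted p = 0.0755), and Tcrg-C2, a gamma chain segment, had a log2 fold change of -0.50 (edgeR adjusted p = 0.240). Prdm1, which encodes the Blimp-1 repressor of effector lymphocytes, had 3.49 ± 0.157 and 2.03 ± 0.280 CPM (n = 3, log2 fold change -0.77, edgeR adjusted p = 0.0650), and Runx3, a factor of CD8 T cells, had -0.64 (edgeR adjusted p = 0.190).

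The cytokine gene Tnf, also made by macrophages, had 5.79 ± 0.842 CPM in sgCtrl and 3.15 ± 0.512 CPM in sgPrdx2 livers (n = 3, log2 fold change -0.88, edgeR adjusted p = 0.0553). Srgn, the proteoglycan core of granules in many leukocytes, had a log2 fold change of -0.50 (edgeR adjusted p = 0.136). Itga2, which encodes the CD49b integrin of NK cells and is also found on other cells, had 3.90 ± 0.736 CPM in sgCtrl and 1.63 ± 0.602 CPM in sgPrdx2 livers (n = 3, log2 fold change -1.24, edgeR adjusted p = 0.0660). The Fc receptor gene Fcgr3, shared by NK cells and macrophages, had -0.60 (edgeR adjusted p = 0.142). Of the listed genes, Ifng had 35 counts and Il17a had 0 counts over the 6 livers together, too few to test, and so had Il23r, Klrg1, Klra7 and Klra9. One listed NK receptor, Cd244a, matched no symbol.

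**Figure D4:**
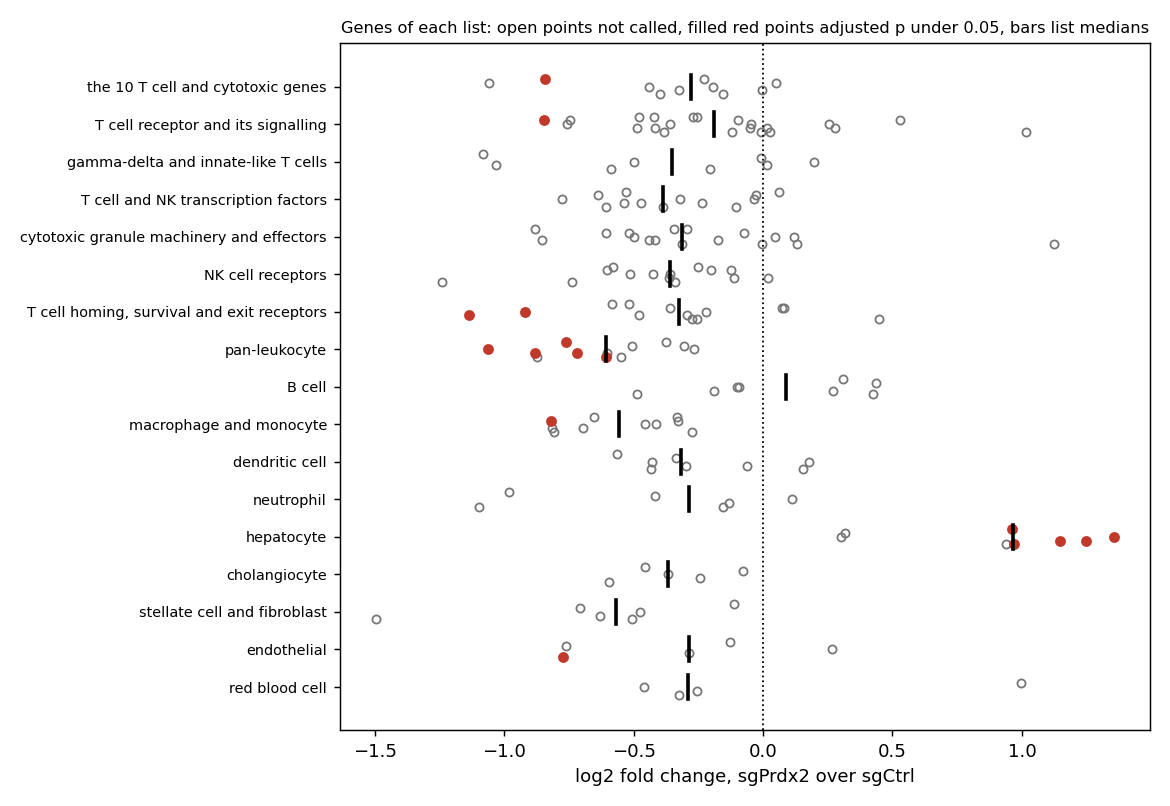
Log2 fold change of sgPrdx2 over sgCtrl livers for every tested gene of each list, with open points for genes not called, filled red points for genes with an adjusted p under 0.05 and black bars for list medians; the dotted line is at 0. The 6 T and NK cell lists have medians from -0.39 to -0.19, the pan-leukocyte list -0.61, the B cell list 0.09 and the hepatocyte list 0.97.

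Genes of other cell types moved beside the lymphocyte genes, and their part in the differences above was not tested. Of 12 pan-leukocyte genes, all had a log2 fold change below 0 (median -0.61), and 5 were called lower: Itgb2, Dock2, Cd53, Lcp1 and Laptm5. The summed level of all 12 genes was 1059 to 1261 CPM in sgCtrl and 678.0 to 815.2 CPM in sgPrdx2 livers. All 10 macrophage and monocyte genes were below 0 (median -0.55, summed level 3152 to 3415 against 2124 to 2946 CPM). Most of that sum was Lyz2, with means of 2012 and 1602 CPM and overlap between groups. Of the 10 genes, Mpeg1 was called, with Adgre1 next at an edgeR adjusted p of 0.0690. The summed level of all 8 hepatocyte genes was 79380 to 85680 CPM in sgCtrl and 134800 to 180700 CPM in sgPrdx2 livers. Most of it was Alb, with means of 60210 and 117800 CPM. Of the 8 hepatocyte genes, 5 were called higher (Ttr, Serpina1a, Cyp2e1, Apoa1 and Alb), beside 305 of all 17032 genes tested. These counts changed when a liver was left out. Without sgPrdx2 liver 3.2, 5 pan-leukocyte, 3 macrophage and monocyte and 3 hepatocyte genes were called, without sgCtrl liver 7.1 the counts were 3, 0 and 0, and without any of the other 4 livers no gene was called (edgeR). The B cell list had 4 of 8 genes below 0 and a median of 0.09. Its summed level, 70.4 to 85.5 against 69.2 to 81.1 CPM, overlapped between groups. The B cell genes with the smallest p were Cd22 (log2 fold change -0.49, edgeR adjusted p = 0.0863) and Cd79b (0.44, edgeR adjusted p = 0.187).

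The dendritic cell list, which holds cells that can carry Cd8a or Cd4, had 6 of 8 genes below 0 (median -0.32). Its summed level was 122.9 to 149.0 CPM in sgCtrl and 86.2 to 112.3 CPM in sgPrdx2 livers. Most of this sum was Itgax, with means of 99.8 and 67.5 CPM, the only 1 of the 8 genes that was lower without overlap. Itgax and Flt3 had the smallest p (log2 fold changes -0.56 and -0.43, edgeR adjusted p = 0.0875 and 0.248). Xcr1 and Clec9a, markers of the dendritic cells that can carry Cd8a, had 3.89 ± 1.33 and 6.89 ± 1.49 CPM in sgCtrl and 2.90 ± 0.435 and 5.47 ± 1.70 CPM in sgPrdx2 livers (n = 3), with overlap between groups. Medians were -0.29 for neutrophils (led by Csf3r and Mmp8), -0.37 for cholangiocytes (Spp1 and Epcam), -0.57 for stellate cells and fibroblasts (Acta2 and Col3a1), -0.29 for endothelium, where Pecam1 was called lower and Cdh5 came next, and -0.29 for red blood cells (Hbb-bt and Alas2, the latter with 59.2 CPM in sgCtrl and 118.2 CPM in sgPrdx2 livers).

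The profiles most like those of the T cell genes over the 6 livers were sought among the 14114 genes averaging 1 CPM or more, by the root mean square difference of log2 CPM after each gene was centred. For the mean of Cd3d, Cd3e and Cd3g, the nearest were Alkbh1 (0.0471), Rrs1, Zdhhc15, Sel1l3, 2900089D17Rik, Zfr2, Mrgbp and Fut11 (0.0860). Of the other T cell and cytotoxic genes compared, Nkg7 was nearest (0.168), followed by Cd8b1 (0.299) and Gzmb (0.334), and Prf1 was farthest (0.517). For Cd8a the nearest genes were Entpd1 (0.0870), Ehd4, Cdc25a, C130050O18Rik and Ptafr (0.110). Entpd1, Ehd4, Cdc25a and Ptafr were called lower. A group difference like that of Cd8a follows from how these genes were chosen, so their calls add nothing to its own. Cd8a was at 0.339 from Cd8b1, 0.378 from Cd3e, 0.412 from Prf1 and 0.696 from Cd4. Over 6 libraries, many genes come close to any single profile, and these values are a description.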

How the data were processed

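RNA was extracted with Trizol from flash-frozen livers, and libraries were made by standard Illumina protocols per the labels. The authors deposited the number of reads per gene and liver as raw counts, without normalization. HISAT2, HTSeq and DESeq2 and the build GRCm38 are named in the submitters' processing notes. Versions, annotation and strand setting are not given in the sources used here. A second deposited table holds the authors' DESeq2 comparison (mean signal, fold changes and p-values) and was not used. Each liver carries a mouse number of its own in the labels, which also gave the groups. The 6 livers differed from each other by more than sampling noise.

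The fit used edgeR 4.0.16 under R 4.3.3: filterByExpr at its defaults (minimum count 10), TMM, glmQLFit and glmQLFTest without a covariate, two-sided, Benjamini-Hochberg over 17032 genes, called at an adjusted p under 0.05. The SE was obtained from the log2 fold change and the F statistic. Ratios of log2 CPM (prior count 2) were compared by two-sided exact permutation tests over livers. The edgeR and DESeq2 fits were tried on simulated counts, with changes larger than those described here. The permutation test was checked on a few made-up values only. Alternatives were RLE, upper-quartile and total-count scaling, no filter, at least 10 counts in every liver, DESeq2 1.42.0, thresholds of 0.1 and 0.01, a prior count of 0.5, and leaving out each liver. Gene positions, exon lengths and 50-base stretches come from GENCODE on GRCm38, which need not be the authors' annotation, and promoters from RefSeq.

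The genes and lists were chosen with earlier results of these data known. Named are the 10 genes, every called gene of the other lists (some results are not reported here) or, where none was called, the 2 with the smallest p, Ptprc and defining markers beside a result, and the 8 and 5 genes with the nearest profiles; Zap70, Trac, Trbc1, Trbc2, Adgre1 and Cdh5 were named after their values were seen. The 95% Poisson intervals of low counts and the floor of 3 counts cover counting error only.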

Additional observations from a re-analysis of the deposited data

How the results depend on the processing

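Of the 10 genes, the edgeR call of Cd8a held with RLE and upper-quartile factors, without the filter, with at least 10 counts in every liver and by DESeq2. The number called was 2 with scaling to total counts, 0 at an adjusted p under 0.01 and 0 whichever liver was left out. In the 6 T and NK cell lists, 21 genes were called with total-count scaling, 8 without the filter, 10 by DESeq2, 9 at an adjusted p under 0.1, 0 at 0.01 and 0 to 4 with a liver left out. In the pan-leukocyte list the counts were 11 with total-count scaling, 8 by DESeq2, 8 at 0.1, 0 at 0.01 and 0 to 5 with a liver left out. Scaling to total counts moved the median over all genes (log2) from -0.02 to -0.39, so that the value of -0.31 for Cd4 under it, a reversal, lies above that median. Gzma reversed to 0.0077 with RLE factors and 0.0096 by DESeq2.

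With a liver left out, log2 fold changes ran from -0.30 to 0.032 for Cd3d, -0.22 to 0.44 for Cd4 and -0.13 to 0.11 for Gzma, and differences of log2 ratios from -0.13 to 0.31 for Cd8a to Ptprc, -0.21 to 0.32 for Gzmb to Cd3e and -0.033 to 0.32 for Nkg7 to Cd3e. The causes were not tested. Over all genes, 567 were called by edgeR, 1128 without the filter, 3247 with total-count scaling, 2118 by DESeq2 and 0 to 619 with a liver left out (0 without sgCtrl liver 5.1 or 7.2 or sgPrdx2 liver 1.1 or 1.3, where every call was lost, but 394 without sgCtrl liver 7.1 and 619 without sgPrdx2 liver 3.2). Among the values of single genes and single lists over all settings, 276 kept their direction and their side of the threshold, 20 lost a call, 7 gained one, 78 were counts that moved by over 1.5 times and 9 changed sign. No paired analysis was possible because the mouse numbers in the labels are not shared between the groups. Depth limits the rarest genes: Prf1 and Gzma had 22 and 27 counts in sgPrdx2 liver 3.2.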

Other observations

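Reads on the variable segments of the T cell receptor, which differ between T cell clones, were not part of any comparison above and were summed after the other values were seen. The 128 alpha chain variable segments in the table together had 39, 29 and 27 counts in sgCtrl livers 5.1, 7.1 and 7.2 (0.891, 0.645 and 0.514 CPM), and 16, 20 and 7 counts in sgPrdx2 livers 1.1, 1.3 and 3.2 (0.365, 0.370 and 0.215 CPM). For these segments the sgPrdx2 livers were all below the sgCtrl livers. The 60 alpha chain joining segments did not follow, with 6, 5 and 4 counts in sgCtrl and 4, 9 and 4 counts in sgPrdx2 livers (0.137, 0.111 and 0.0761 against 0.0911, 0.166 and 0.123 CPM). The counts of the variable segments are small, with 95% Poisson intervals of 17.8 to 39.3 for the 27 counts and 12.2 to 30.9 for the 20 counts, which overlap. The difference in the variable segments was not tested. The 35 beta chain variable segments had 115, 97 and 116 counts in sgCtrl and 104, 107 and 48 counts in sgPrdx2 livers (2.63, 2.16 and 2.21 against 2.37, 1.98 and 1.47 CPM), and the groups overlapped. The 14 beta chain joining segments had 32, 30 and 16 counts in sgCtrl and 14, 35 and 8 counts in sgPrdx2 livers, with overlap. The 6 gamma chain variable segments had 16, 13 and 11 counts in sgCtrl and 9, 8 and 7 counts in sgPrdx2 livers (0.366, 0.289 and 0.209 against 0.205, 0.148 and 0.215 CPM), also with overlap. Segments with a count numbered 13 to 21 for the alpha chain in sgCtrl and 5 to 15 in sgPrdx2 livers, and such numbers depend on depth.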
